A study of Mus musculus with 3143 samples.

Results

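The Serpina3 genes examined here are 5 neighbouring, closely related mouse genes, Serpina3f, Serpina3g, Serpina3h, Serpina3i and Serpina3n, taken by symbol from a table of 46517 genes. The table holds 14 Serpina3 genes and pseudogenes. The 5 were chosen with levels measured in these cells in view, so those levels are given as a description, without a test. Smart-seq2, a plate-based method in which each well holds a single sorted cell and cDNA is made over whole transcripts, had been run on dissociated glomeruli of adult C57BL/6 mouse kidney. One group of cells came from mice labelled IgAN, for IgA nephropathy, and the other from mice labelled Control. The labels do not say how the IgAN state arose and name no animal. The IgAN group had 1798 cells, on the 6 plates 313, 315, 316, 318, 322 and 325. The Control group had 1345 cells, on the 4 plates 314, 317, 321 and 326.

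Each group therefore counts as 1 sample, there is no replicate test, and plate and group cannot be told apart. The spread between plates is given beside the levels, but it does not measure the spread between animals. A cell held 50365 to 1135415 reads in genes, with a median of 231222 in IgAN and 241543 in Control. Levels are CPM, reads of a gene per 1e6 reads in genes, with reads summed over the cells named. The groups also differed in Gm13340, a gene model at a median of 961.2 CPM in IgAN cells and 0 CPM in Control cells. In 41 cells its share of the reads of Gm13340 and mt-Co1 lay on the other group's side of 30%, 19 of them labelled IgAN and 22 labelled Control. Without those cells the summed Serpina3 level of endothelial-like cells was 1192 CPM in IgAN and 442.4 CPM in Control, against 1181 and 444.7 CPM with them. Few of them were endothelial-like. The 14 labelled IgAN, from 1 plate, were at 415.2 CPM, and the 7 labelled Control, also from 1 plate, at 716.3 CPM. Why these cells differed from their label was not tested.

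Serpins are protease inhibitors that work as bait. A protease cuts an exposed stretch, the reactive centre loop, and stays covalently trapped in the folded inhibitor, so the loop decides which protease is caught. Humans have 1 SERPINA3 gene, which encodes the plasma inhibitor alpha-1-antichymotrypsin, and mice have a tandem cluster of copies whose loops have diverged. Serpina3n encodes a secreted acute phase inhibitor. Serpina3g, also called Spi2A, encodes an inhibitor that stays inside the cell and blocks lysosomal cysteine cathepsins. Serpina3h is annotated as a transcribed pseudogene, so its reads report transcription of the cluster and not a known protein.

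The 5 genes lie on the plus strand of chromosome 12 in GRCm38 (GENCODE vM21): Serpina3f at chr12:104214544-104221129, Serpina3g at chr12:104236245-104241939, Serpina3h at chr12:104247905-104253669, Serpina3i at chr12:104263122-104269372 and Serpina3n at chr12:104406729-104414329. No other annotated gene overlaps them. The loop-coding stretches are shown first because the loop decides which protease is caught. Each runs from the hinge codons shared by all 5 genes to the codons after the loop. Bases in capitals differ from Serpina3g in a pairwise alignment.
Serpina3f: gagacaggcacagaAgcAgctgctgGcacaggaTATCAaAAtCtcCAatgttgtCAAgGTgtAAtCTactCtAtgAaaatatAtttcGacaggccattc
Serpina3g: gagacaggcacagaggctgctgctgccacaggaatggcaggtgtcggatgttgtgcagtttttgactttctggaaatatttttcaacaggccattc
Serpina3h: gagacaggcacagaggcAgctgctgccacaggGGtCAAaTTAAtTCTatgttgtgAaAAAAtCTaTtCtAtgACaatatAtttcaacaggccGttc
Serpina3i: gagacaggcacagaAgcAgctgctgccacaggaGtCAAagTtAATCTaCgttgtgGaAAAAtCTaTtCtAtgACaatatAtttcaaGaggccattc
Serpina3n: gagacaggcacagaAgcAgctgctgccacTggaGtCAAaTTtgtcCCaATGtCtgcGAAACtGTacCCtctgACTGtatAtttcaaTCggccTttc
They lie at chr12:104220239-104220337 (Serpina3f), chr12:104241066-104241161 (Serpina3g), chr12:104253505-104253600 (Serpina3h), chr12:104268474-104268569 (Serpina3i) and chr12:104413442-104413537 (Serpina3n). The first bases of the hinge are the same in all 5, and most capitals stand in the middle. Serpina3n differed from Serpina3g at 32 of 96 aligned bases, and Serpina3h and Serpina3i at 27 each. Serpina3h and Serpina3i were the most alike pair, at 90.62% identity, although none of the Serpina3h stretch is annotated as coding.

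Against Serpina3g the whole transcripts are more alike than the loops: those of the other 4 genes are 80.44% to 88.52% identical to it, and their loop stretches 66.67% to 75.0%. Pairs without Serpina3g varied. Serpina3h and Serpina3n are 76.04% identical in the loop and 84.23% over transcripts, but Serpina3f and Serpina3i 89.13% and 88.14%. Serpina3h and Serpina3i are 90.62% and 90.86% identical. Of the 50-base words in each gene's transcripts, 89.43% of those of Serpina3f, 84.5% of Serpina3g, 78.09% of Serpina3h, 84.14% of Serpina3i and 93.1% of Serpina3n occur in no other gene's transcripts. Of 100-base words, 96.4% (Serpina3h) to 99.8% (Serpina3n) do. The read length is not given in the sources used here. The remaining words cannot assign a read to 1 copy, so some reads may be counted to a neighbour or lost. For that reason each comparison is also given for the sum of the 5 genes, here the Serpina3 sum.

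Endothelial-like cells held 386041 of the 441424 reads of the 5 genes, or 87.45%. They were 1612 cells, 997 IgAN and 615 Control, in 6 clusters made without any Serpina3 gene and named from 11 endothelial markers. The markers summed to 17170 CPM in IgAN and 17380 CPM in Control, and over the plates to 16170 to 18460 CPM and 16590 to 18850 CPM. Markers of podocytes (559.1 CPM in IgAN, 678.4 CPM in Control) and of parietal epithelial cells (1959 and 2333 CPM) were the next most abundant. Leaving out cells with at least 3 markers of another class at 50 CPM or more left 678 IgAN and 409 Control cells. Their Serpina3 sum was 1093 CPM in IgAN (plates 769.3 to 1625) and 419.9 CPM in Control (plates 357.5 to 454.9). Beyond that, the part of these markers in the levels was not tested.

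All 5 genes were higher in IgAN than in Control endothelial-like cells, and no plate of IgAN overlapped a plate of Control for any of them. Serpina3f was at 171.0 CPM in IgAN and 48.83 CPM in Control, a log2 difference of 1.79. Its IgAN plates ran from 103.3 CPM through a median of 186.1 to 254.4 CPM, and its Control plates were at 59.41, 38.61, 39.21 and 53.46 CPM. It had the largest ratio of the 5, 3.50. The cathepsin inhibitor Serpina3g was at 393.1 CPM in IgAN and 125.8 CPM in Control, a log2 difference of 1.64. Its IgAN plates had a lowest, median and highest level of 318.8, 377.3 and 648.6 CPM, and its Control plates were at 113.8, 124.7, 72.98 and 155.4 CPM. The lowest IgAN plate thus lay well above the highest Control plate.

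The transcribed pseudogene Serpina3h was at 402.2 CPM in IgAN and 180.4 CPM in Control, a log2 difference of 1.15. Its IgAN plates ran from 253.9 through 459.7 to 603.3 CPM, and its Control plates were at 216.5, 172.3, 132.3 and 176.6 CPM. The gap between the groups was narrow here: IgAN plates 318 and 322, at 253.9 and 263.6 CPM, stood close to Control plate 314. Serpina3i, its nearest relative in sequence, was at 200.2 CPM in IgAN and 82.43 CPM in Control, a log2 difference of 1.27. Its IgAN plates ran from 131.8 through 224.3 to 289.2 CPM, and its Control plates were at 95.61, 79.72, 52.67 and 85.22 CPM. Plates 318 and 322 were again the 2 lowest of IgAN.

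Serpina3n, the secreted acute phase inhibitor, was the least abundant, at 14.39 CPM in IgAN and 7.21 CPM in Control, a log2 difference of 0.91. Its IgAN plates ran from 9.92 through 15.92 to 20.99 CPM, and its Control plates were at 7.61, 8.49, 4.202 and 6.78 CPM. These plates did not overlap either, but the difference stayed under a log2 of 1. The Serpina3 sum was at 1181 CPM in IgAN and 444.7 CPM in Control, a log2 difference of 1.41. It averaged 1274 ± 362 CPM over the 6 IgAN plates and 424 ± 86.9 CPM over the 4 Control plates (SD over plates, which are not replicates of the condition).

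**Figure D1:**
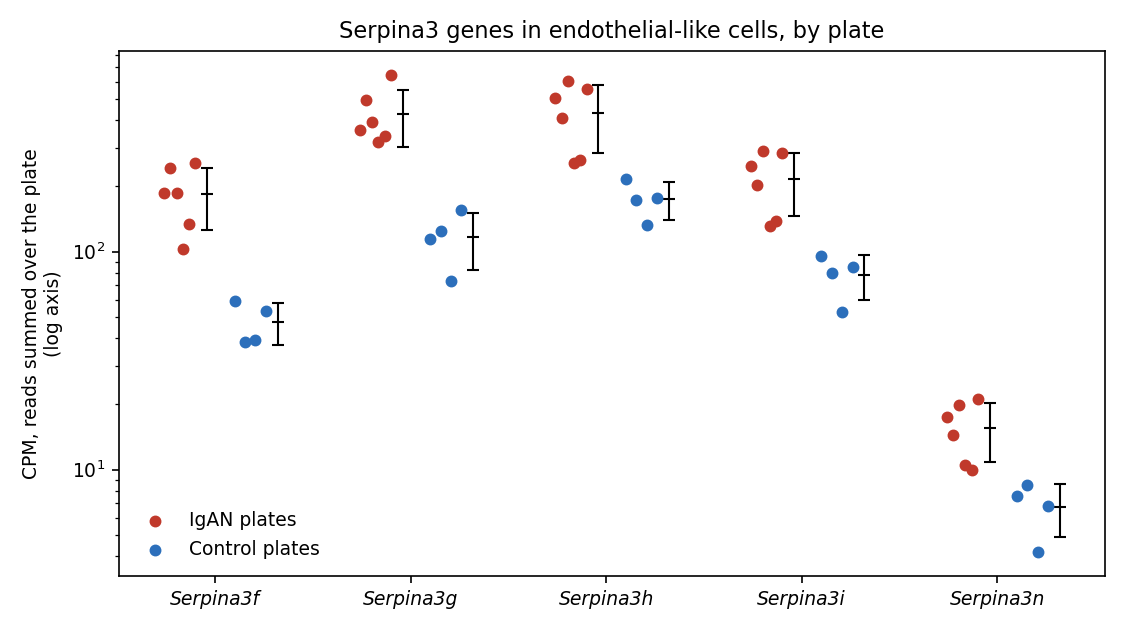
CPM (log axis) of each of the 5 genes in endothelial-like cells, 1 point per plate, IgAN plates in red at the left and Control plates in blue at the right of each gene; black bars are the mean and SD over plates. For every gene the lowest IgAN plate lies above the highest Control plate, with the smallest gap for Serpina3n, 9.92 against 8.49 CPM.

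Of the 5 genes 4, Serpina3f, Serpina3g, Serpina3h and Serpina3i, met the size rule used for every gene: a log2 difference of at least 1 in CPM + 1, with the plates of the 2 groups apart. Among 9686 genes measured in endothelial-like cells, 0.774% met it as higher in IgAN (75 genes) and 0.702% as lower (68 genes). Nothing is read from the members' count, because they were chosen with these values in view. By size of the difference the members ranked 39 (Serpina3f), 45 (Serpina3g), 99 (Serpina3i), 139 (Serpina3h) and 267 (Serpina3n) of the 9686. Serpina3i and Serpina3h stood just inside the limit of 1, at 1.27 and 1.15, and Serpina3n just outside it, at 0.91. One neighbour, the pseudogene Serpina3e-ps, was at 45.63 CPM in IgAN and 18.18 CPM in Control, a log2 difference of 1.28, and met the rule. The other 8 Serpina3 genes and pseudogenes were all under 2 CPM in endothelial-like cells of both groups pooled, with Serpina3b at 2.49 CPM in IgAN and 0.023 CPM in Control and Serpina3m at 0.126 CPM in IgAN and 3.57 CPM in Control; Serpina3b was highest in proximal tubule-like cells, at 14.33 CPM.

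Levels of different genes were set side by side per kilobase of exon in GENCODE vM21. The annotation used for counting is not given, so these lengths (1.434 kb for Serpina3h, 2.105 kb for Serpina3g) may differ from it. The share of words found in 1 copy only also differs by gene and was not corrected for. On this scale Serpina3h came first, at 280.5 CPM per kb in IgAN and 125.8 in Control. Serpina3g followed, at 186.7 CPM per kb in IgAN and 59.75 in Control. Serpina3i (90.03 and 37.07 CPM per kb) and Serpina3f (74.66 and 21.32 CPM per kb) came next, and Serpina3n was last, at 6.97 and 3.49 CPM per kb. The order was the same in both groups. Between neighbours in this order, the plate ranges of Serpina3h and Serpina3g overlapped in IgAN and not in Control. Those of Serpina3g and Serpina3i overlapped in Control only, and those of Serpina3i and Serpina3f in both groups. All the genes were read on the same plates, however. Plate by plate, Serpina3h was above Serpina3g and Serpina3g above Serpina3i on every plate of both groups. Serpina3i was above Serpina3f on every plate but IgAN plate 315.

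The copies did not keep exactly the same proportions. Serpina3f made up 14.48% of the reads of the 5 genes in IgAN endothelial-like cells and 10.98% in Control. Serpina3g made up 33.29% in IgAN and 28.29% in Control. Serpina3h made up 34.06% in IgAN and 40.57% in Control. By plate, the ratio of Serpina3f to Serpina3h reads lay between 0.309 and 0.588 in IgAN, against 0.224 to 0.303 in Control, so the plates lay apart, if barely. The ratio of Serpina3g to Serpina3h lay between 0.650 and 1.29 in IgAN, against 0.525 to 0.880 in Control, and these overlapped. The ratio of Serpina3i to Serpina3h varied least, with 0.479 to 0.523 over the IgAN plates against 0.398 to 0.483 over those of Control.

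Both the share of cells with reads and the level per cell were higher in IgAN. At least 1 read of the 5 genes was found in 98.7% of the IgAN endothelial-like cells, with a Clopper-Pearson 95% interval of 97.78 to 99.30%. The share in Control was 83.58%, with an interval of 80.41 to 86.42%. Thinned to 50000 reads per cell, the shares were 93.58% in IgAN and 63.58% in Control. A read alone does not mark a class: podocyte-like cells, at 14.71 CPM in IgAN and 4.18 CPM in Control, had a read in 94.87% and 67.81% of cells, at median depths of 234719 and 294133 reads. Thinned, those podocyte-like shares were 58.97% in IgAN and 19.86% in Control. Levels therefore say more than presence.

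The median endothelial-like cell held 947.8 CPM of the Serpina3 sum in IgAN and 72.56 CPM in Control. At least 1000 CPM was reached by 484 IgAN cells (48.55%) and 96 Control cells (15.61%). Median cells held 129.2 CPM of Serpina3g in IgAN and 9.19 CPM in Control, and 353.6 CPM of Serpina3h in IgAN and 12.62 CPM in Control. All 5 genes were seen together in 729 of 997 IgAN cells (73.12%) and 263 of 615 Control cells (42.76%). None was seen in 13 IgAN cells (1.30%) and 101 Control cells (16.42%).

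**Figure D2:**
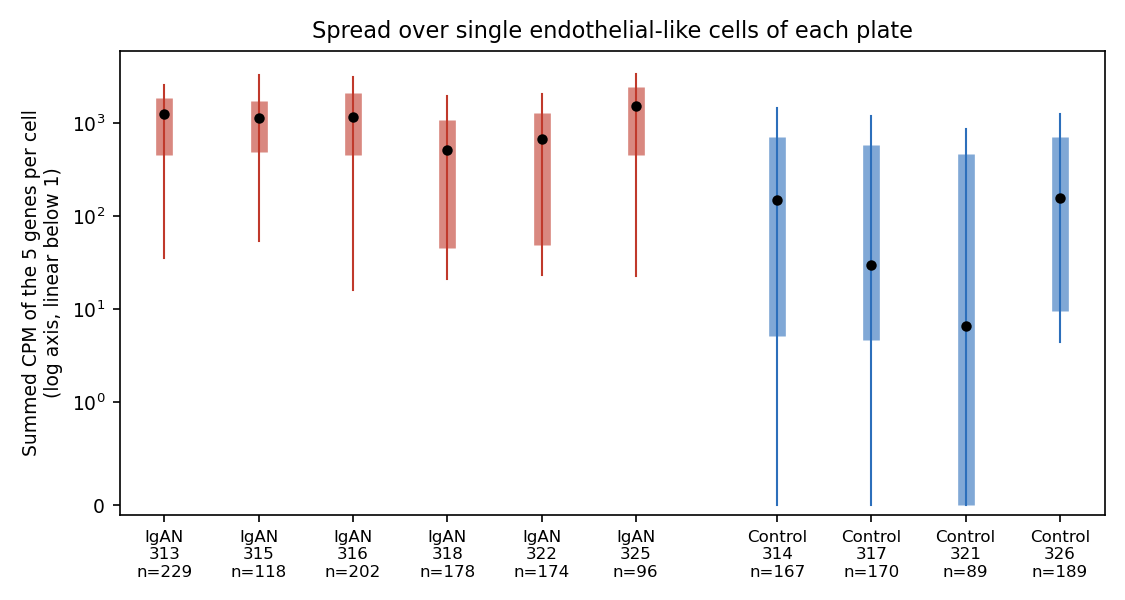
Summed CPM of the 5 genes per endothelial-like cell (log axis, linear below 1), by plate, IgAN plates in red and Control plates in blue; the dot is the median, the thick bar the middle 50% of cells and the thin line the 10th to 90th percentile. IgAN plate medians run from 516.5 to 1542 CPM and Control plate medians from 6.61 to 154.2 CPM, while the upper ends of the 2 groups lie closer.

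Control cells were the more uneven. The 10% of cells with the most Serpina3g held 43.58% of its summed CPM in IgAN and 67.13% in Control. For Serpina3h the corresponding shares were 29.27% in IgAN and 46.34% in Control. Control plate 321 was the extreme, with a median of 6.61 CPM of the Serpina3 sum and no read in 39.33% of its 89 cells, but its most loaded cell held 3317 CPM. Within plates the genes varied together from cell to cell: the Pearson correlation of log CPM between Serpina3h and Serpina3i had a median of 0.928 over the 10 plates (0.893 to 0.940). It was lowest between Serpina3g and Serpina3h, at a median of 0.760 (0.633 to 0.831). These are descriptions over cells that share a library preparation, and copies with common reads correlate in part by construction.

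Different clusters held most of the endothelial-like class in the 2 groups. Cluster 0, led by Fgf1 and Ces2g, had 36 IgAN and 421 Control cells. Cluster 1 (led by Igf2 and Hspg2) had 354 and 60 cells, cluster 2 (Gm20659, Ppp1r16b) had 264 and 17, and cluster 3, led by Rnd1, Sele and Cxcl10, had 229 and 2. Cluster 4, led by the matrix genes Fbln5 and Fbln2, was balanced at 108 and 109 cells, and cluster 22 had 6 cells of each group. Since each plate holds 1 group, a cluster made almost entirely of 1 group may be its plates and not a cell state.

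The Serpina3 sum was higher in IgAN in each of the 4 clusters with at least 17 cells of both groups. It was 672.6 CPM in IgAN and 480.5 CPM in Control in cluster 0. In cluster 1 it was 1566 CPM in IgAN and 676.1 CPM in Control. Cluster 2 had 994.8 CPM in IgAN and 539.7 CPM in Control, and cluster 4 had 398.7 and 145.9 CPM. Of these 4 clusters, cluster 4 thus held the lowest level in both groups and cluster 1 the highest.

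The copies differed in how far the cluster mattered. In cluster 0 Serpina3h was at 200.4 CPM (95% counting interval 191.5 to 209.6) in IgAN and 195.4 CPM (192.9 to 198.0) in Control. Serpina3n in cluster 0 was at 8.39 CPM in IgAN and 8.22 CPM in Control. Serpina3g in the same cells was at 270.9 CPM in IgAN and 134.5 CPM in Control, and 22.63% of its IgAN reads came from 1 of the 36 cells. In cluster 2 Serpina3h was at 314.5 CPM in IgAN and 279.5 CPM in Control, whereas Serpina3g was at 366.6 and 78.19 CPM. In cluster 1 all 5 copies were higher in IgAN over pooled cells, with Serpina3h at 589.3 CPM in IgAN and 279.2 CPM in Control. Plates were not compared within clusters. In cluster 4 Serpina3f was at 74.08 CPM in IgAN and 15.58 CPM in Control. In clusters 0 and 2 the groups were thus closer in Serpina3h, Serpina3i and Serpina3n than in Serpina3f and Serpina3g, with 36 IgAN cells in the first and 17 Control cells in the second.

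**Figure D3:**
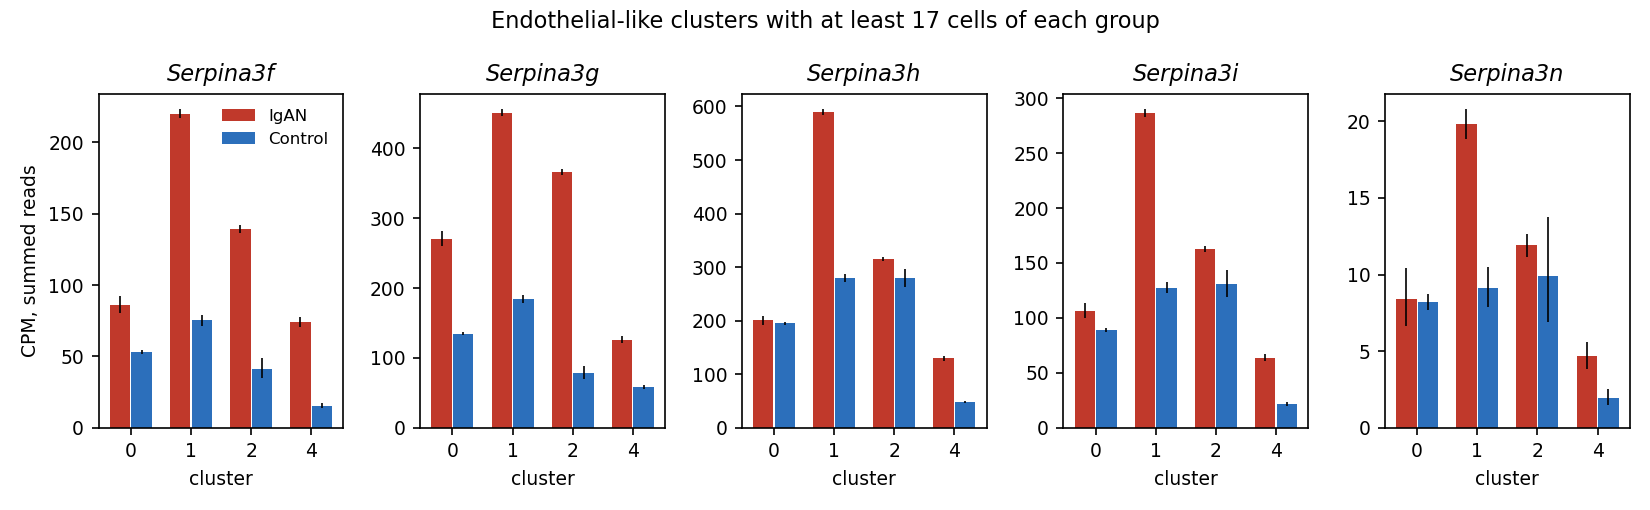
CPM of each gene in the 4 endothelial-like clusters with at least 17 cells of each group, IgAN bars in red left of Control bars in blue, each axis starting at 0; error bars are 95% Poisson counting intervals. Serpina3h is level between the groups in cluster 0 (200.4 and 195.4 CPM) and Serpina3g is not (270.9 and 134.5 CPM).

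Cells with at least 10 CPM of the activation genes Sele, which encodes E-selectin, or Cxcl1, a neutrophil chemokine, held more of the Serpina3 sum in both groups. In IgAN the sum was 1389 CPM in the 547 cells with Sele or Cxcl1 and 930.5 CPM in the 450 without. In Control it was 606.3 CPM in 155 cells with and 386.3 CPM in 460 without. Among cells without either gene, IgAN plates ran from 611.1 to 1722 CPM and Control plates from 281.8 to 453.4 CPM, so the groups stayed apart there.

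Outside the endothelium the order of the classes differed between the groups. In IgAN the Serpina3 sum was 840.4 CPM in distal tubule-like and 442.8 CPM in proximal tubule-like cells, followed by B or plasma cell-like (185.0), macrophage or dendritic cell-like (153.0), parietal epithelial-like (79.46), mesangial-like (74.12) and T or NK cell-like cells (58.78). Neutrophil-like cells (40.83 CPM), podocyte-like cells (14.71 CPM) and the smooth muscle or renin class (10.81 CPM) came last. In Control every class was low: 56.72 CPM in B or plasma cell-like, 30.94 in macrophage or dendritic cell-like, 20.33 in parietal epithelial-like, 17.86 in T or NK cell-like and 17.08 CPM in distal tubule or collecting duct-like cells. It was at most 5.04 CPM in Control mesangial-, neutrophil-, podocyte-, proximal tubule- and smooth muscle-like cells.

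**Figure D4:**
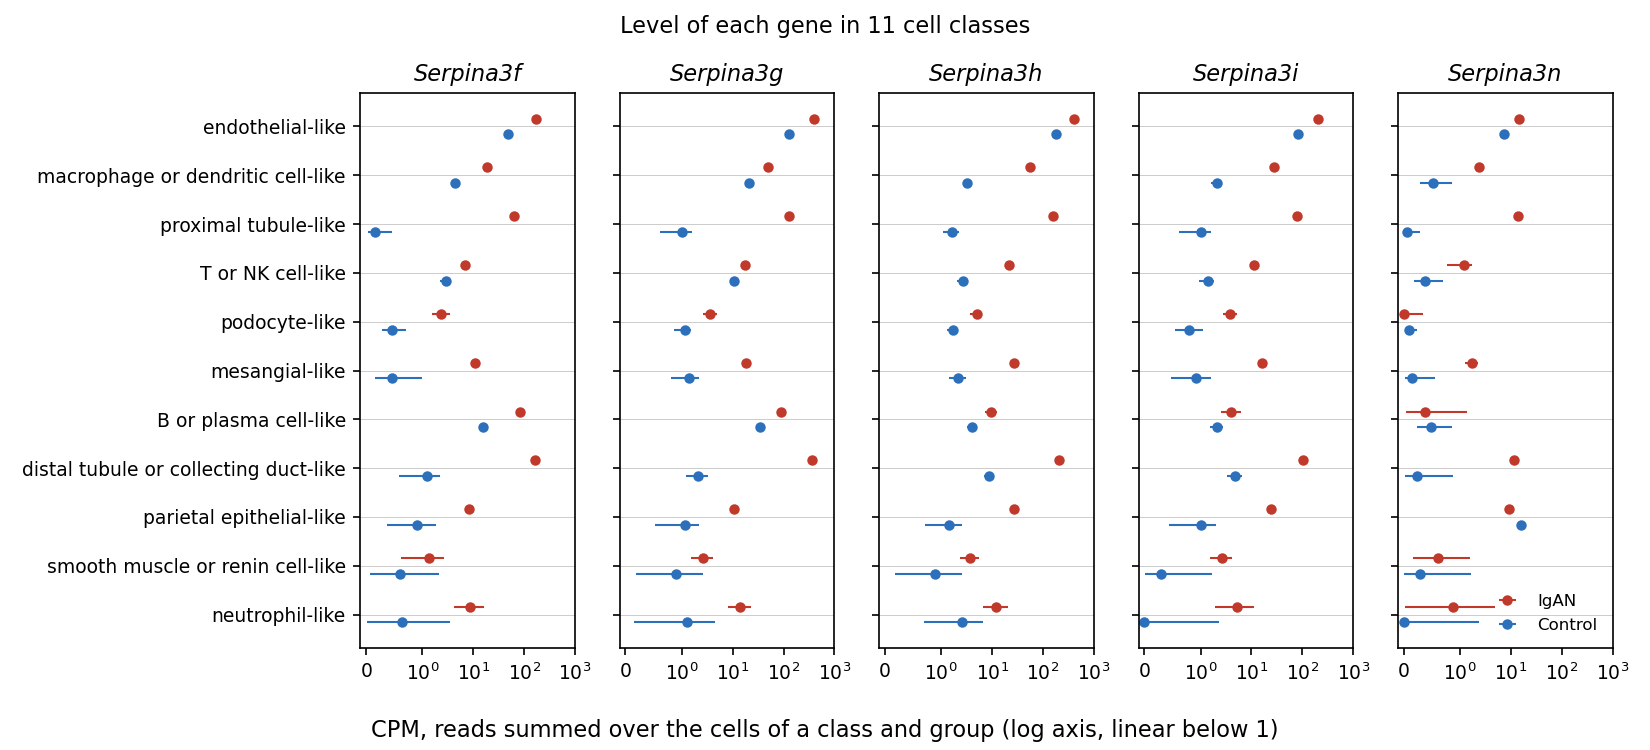
CPM (log axis, linear below 1) of each gene in 11 cell classes, IgAN in red above Control in blue; lines are 95% Poisson counting intervals. In IgAN the tubule-like classes come next to the endothelial-like one in the Serpina3 sum (442.8 and 840.4 CPM); in Control endothelial-like cells are highest for 4 genes, while Serpina3n is highest in the parietal epithelial-like class, at 15.80 CPM, all from 1 cell.

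Reads of endothelial markers were present in the same cells, on the same plates. Proximal tubule-like cells, which should lack Pecam1 and Cdh5, held 32.45% of the endothelial-like level of these 2 junction genes in IgAN and 1.27% in Control. They held 37.5% of the endothelial-like Serpina3 sum in IgAN and 0.864% in Control. By plate, the sum in IgAN proximal tubule-like cells was 910.3 CPM on plate 325, 410.0 on plate 315, 101.9 on plate 318 and 17.37 CPM on plate 316. The 11 endothelial markers summed to 9405, 5327, 913.4 and 235.4 CPM on those plates, in the same order. The Control plates had 2.57, 7.38 and 2.104 CPM of the sum, with 197.5, 307.5 and 148.8 CPM of the markers.

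All 5 genes met the size rule in proximal tubule-like cells, where the same rule called 6.62% of 10385 genes as higher and 2.23% as lower in IgAN. Leaving out cells that carried at least 3 markers of another class at 50 CPM or more left 33 IgAN and 62 Control proximal tubule-like cells. Their Serpina3 sum was 13.52 CPM in IgAN and 3.20 CPM in Control, with 207.9 and 156.6 CPM of endothelial markers. Most of the level in this class thus sat in the cells that carried markers of another class.

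Distal tubule or collecting duct-like cells held a larger share of the endothelial-like Serpina3 level than of the endothelial-like Pecam1 and Cdh5 level. They held 71.17% of the endothelial-like Serpina3 sum in IgAN and 3.84% in Control, beside 33.91% and 3.21% for Pecam1 and Cdh5. The IgAN level came from plate 325, at 1552 CPM over 13 cells, and plate 315, at 1267 CPM over 31 cells; plate 318, the other with at least 10 cells, was at 18.58 CPM. Serpina3g led there, at 358.1 CPM in IgAN and 2.06 CPM in Control, before Serpina3h, at 209.2 and 8.84 CPM. Of the 5360 Serpina3g reads of the class in both groups, 2993 (55.84%) came from 5 cells. The 5 IgAN cells with the most Serpina3 reads carried 9 to 11 endothelial markers at 50 CPM or more, whose part was not tested. In Control, 84.93% of the Serpina3h reads came from 1 cell. Leaving out cells with markers of another class left 9 IgAN cells at 12.96 CPM and 14 Control cells at 1.34 CPM.

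Mesangial-like cells, beside which IgA collects in the disease, held 74.12 CPM of the sum in IgAN and 5.04 CPM in Control. Serpina3f, Serpina3g, Serpina3h and Serpina3i met the size rule there, beside 1.29% of 10210 genes as higher and 1.48% as lower in IgAN. The level was 6.28% of the endothelial-like one in IgAN and 1.13% in Control, next to 6.16% and 1.33% for Pecam1 and Cdh5. Plate 325, with 20 cells, was at 380.8 CPM, and the other IgAN plates ran from 12.37 to 74.07 CPM. The Control plates with at least 10 cells ran from 1.90 to 9.25 CPM, so the groups were apart without plate 325 too. Leaving out cells with markers of another class left no IgAN and 3 Control cells, so that alternative gives no comparison here. Several of the endothelial markers were high across this class. Eng was at 2733 CPM in IgAN and 2705 CPM in Control, Ehd3 at 1291 and 900.1 CPM and Plvap at 419.9 and 589.7 CPM. Cdh5 was at 20.3 and 3.05 CPM. The filter thus cannot tell these cells from cells with endothelial RNA, and the marker counts that follow include these genes. The 5 IgAN cells with the most Serpina3 reads carried 9 or 10 endothelial markers at 50 CPM or more. The 5 such Control cells carried 2 to 7, and the part of these markers was not tested.

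T or NK cell-like cells had 58.78 CPM of the sum in IgAN and 17.86 CPM in Control. Serpina3h (21.95 and 2.63 CPM) and Serpina3i (11.38 and 1.37 CPM) met the size rule, beside 0.466% of 9440 genes as higher and 1.25% as lower in IgAN. On IgAN plate 325 the sum was 451.5 CPM over 14 cells, while the other IgAN plates ran from 17.68 to 41.54 CPM. Without cells that carried another class's markers, Serpina3h was at 4.36 CPM in IgAN and 1.30 CPM in Control and Serpina3i at 2.74 and 0.704 CPM, under the 10 CPM needed. The 5 cells highest in Serpina3 reads in IgAN were all on plate 325 and carried 8 to 11 endothelial markers at 50 CPM or more. Serpina3g in this class had a log2 difference of 0.67 with all plates, -0.27 without IgAN plate 325 and 2.71 without Control plate 321. In Control, 87.46% of the Serpina3g reads of the class came from 1 cell of plate 321, at 1806 CPM.

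Macrophage or dendritic cell-like cells had 153.0 CPM of the sum in IgAN and 30.94 CPM in Control. The IgAN plates ran from 10.86 to 295.3 CPM and the Control plates from 2.14 to 58.02 CPM, so they overlapped. Serpina3i alone met the size rule, at 27.47 CPM in IgAN and 2.07 CPM in Control, beside 0.727% of 9904 genes as higher and 0.464% as lower in IgAN. Cdh5, taken alone because leukocytes also express Pecam1, stood at 13.33% of the endothelial-like level in IgAN and 4.855% in Control. Without cells that carried another class's markers, the sum was 44.57 CPM in 71 IgAN cells and 27.15 CPM in 65 Control cells. The 3 IgAN plates with at least 10 such cells ran from 11.3 to 15.47 CPM, all below the pooled IgAN level. The 4 Control plates ran from 1.04 to 38.41 CPM, so the groups overlapped. Serpina3g made up 632 of the 893 IgAN reads but was at 2.905 to 5.137 CPM on those IgAN plates. Serpina3i was then at 3.34 CPM in IgAN and 1.67 CPM in Control, under the 10 CPM needed, and its plates overlapped, so it no longer met the rule.

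**Figure D5:**
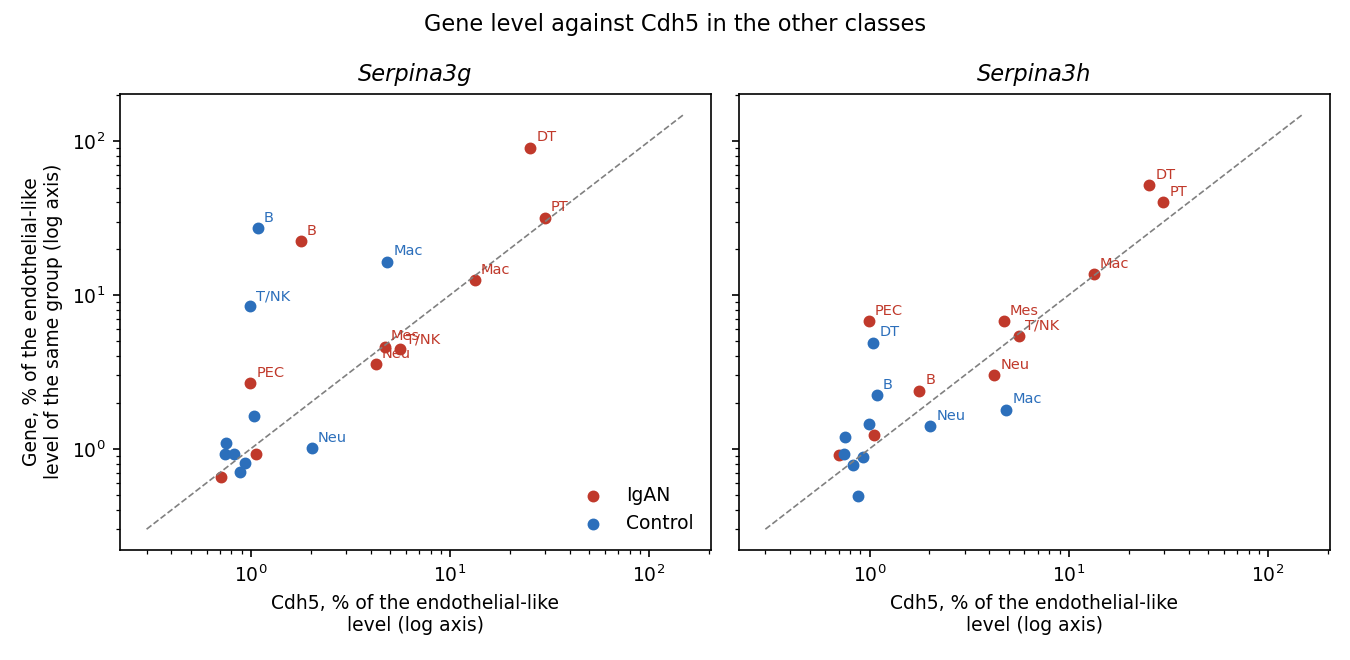
Serpina3g (left) and Serpina3h (right) in the 10 other classes as a percentage of the endothelial-like level of the same group, against the endothelial junction gene Cdh5 on the same scale (both axes log), IgAN in red and Control in blue; the dashed line marks equality. B, B or plasma cell; Mac, macrophage or dendritic cell; T/NK, T or NK cell; DT, distal tubule or collecting duct; PT, proximal tubule; Mes, mesangial; PEC, parietal epithelial; Pod, podocyte; Neu, neutrophil; SMC, smooth muscle or renin cell, with points under 2% on the vertical and 1.7% on the horizontal axis left unlabelled. Control B cell- and T cell-like classes hold 27.25% and 8.45% of the endothelial-like Serpina3g level, beside 1.086% and 0.992% for Cdh5, and lie nearer to the line for Serpina3h, at 2.23% and 1.459%.

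Serpina3g took a larger share of the reads of the 5 genes than in endothelial-like cells in B or plasma cell-like cells of both groups, in macrophage- and T cell-like cells of Control and in distal tubule-like cells of IgAN (42.61%). In the distal tubule-like class, 5 cells held 55.84% of the Serpina3g reads of both groups. In B or plasma cell-like cells Serpina3g made up 47.93% of the reads of the 5 genes in IgAN and 60.45% in Control, and Serpina3f 44.5% and 27.91%. Serpina3h made up 5.19% there in IgAN and 7.09% in Control, against 34.06% and 40.57% in endothelial-like cells. In macrophage or dendritic cell-like cells Serpina3g made up 32.11% in IgAN, close to its endothelial-like share, and 67.04% in Control. The Control value rests on few cells: 5 of the 103 held 134, 138, 98, 107 and 56 of the 602 Serpina3g reads. A read of it was found in 30.1% of the Control cells. Serpina3h made up 36.1% in IgAN and 10.47% in Control of that class. In T or NK cell-like cells Serpina3g made up 29.67% in IgAN and 59.53% in Control, where 1 cell held most of its reads, and Serpina3h 37.34% in IgAN and 14.73% in Control.

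Single B or plasma cell-like cells held high levels of Serpina3g or Serpina3f. The most loaded IgAN B or plasma cell-like cell, on plate 315, had 848.1 CPM of Serpina3f, 694.4 of Serpina3g and 18.44 of Serpina3h, with 316.5 CPM of endothelial markers. In Control a cell of plate 326 had 1390 CPM of Serpina3g, 192.3 of Serpina3f and no Serpina3h read, and a cell of plate 321 had 1090 CPM of Serpina3f and 21.95 of Serpina3g. At least 10 CPM of Serpina3g was reached by 50.0% of the 26 IgAN cells and 9.40% of the 117 Control cells. With 26 IgAN cells and 53.63% of their Serpina3 reads from 1 cell, the levels of this class, 185.0 CPM in IgAN and 56.72 CPM in Control, rest on few cells. These cells were picked by their levels and are shown as examples.

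Serpina3n, the secreted inhibitor, was high in a pair of parietal epithelial-like cells, the lining of Bowman's capsule. An IgAN cell of plate 322 held 132 of its reads (248.0 CPM) and a Control cell of plate 314 held 122 (484.1 CPM), with at most 7.52 CPM of Serpina3h in either. They account for 87.42% of the class's Serpina3n reads in IgAN and 100% in Control. In podocyte-like cells Serpina3n had no read in IgAN, which allows up to 0.279 CPM, and 4 reads, or 0.091 CPM, in Control.

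Over the 19 class and group sums with at least 20 cells, the genes most like the Serpina3 sum in log CPM were Sele (Pearson r 0.896), Gpihbp1 (0.893), Vwa7 (0.892), Slc26a10 (0.890) and Sox7 (0.890). Gpihbp1 anchors lipoprotein lipase on capillary endothelium, and Sox7 is an endothelial transcription factor. Serpina3h and Serpina3i shared Gpihbp1, Zfp57 and Sox7 as their 3 nearest genes, with r from 0.948 to 0.973. Serpina3f was nearest to Rasgrp3 (0.910), Lmo2 (0.895) and Cd38 (0.895), and Serpina3g to Sapcd1 (0.934), Vwa7 (0.929) and Lmo2 (0.924). Serpina3n was nearest to Fbln2 (0.916), a matrix gene, the receptor gene Kit (0.912) and Nim1k (0.906). The nearest of 16006 genes are bound to score high, and the sums share plates.

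Related genes were read in endothelial-like cells beside the members, where the median log2 difference of all 9686 measured genes was 0.01. Acute phase and STAT3 genes had 10 of 26 measured, 4 of them positive, with a median of -0.07 and none by the size rule. The feedback inhibitor gene Socs3 was at 1140 CPM in IgAN and 1390 CPM in Control, the cytokine receptor gene Lifr at 518.9 and 430.0 CPM, and the transcription factor gene Cebpd at 243.4 and 204.4 CPM. Glucocorticoid response genes had 10 of 14 measured, 8 positive, with a median of 0.03 and none by the rule. The kinase gene Sgk1 was at 3241 CPM in IgAN and 3181 CPM in Control, the phosphatase gene Dusp1 at 2826 and 3134 CPM, and the cell cycle inhibitor gene Cdkn1a at 419.6 and 329.9 CPM.

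By their medians, serpins of other clades and the proteases were near all measured genes. Log2 differences of single measured members ran from -0.352 to 0.908 for these serpins and from -0.77 to 1.265 for the proteases. Of 17 serpins of other clades, 9 were measured, 5 positive, none by the size rule, with a median of 0.12. Serpinb9, which encodes the intracellular granzyme B inhibitor, was at 114.8 CPM in IgAN and 98.46 CPM in Control. Serpinb6a (151.2 and 176.9 CPM) and the collagen chaperone gene Serpinh1 (113.3 and 124.7 CPM) were the other abundant ones. Of 14 other clade A serpins, Serpina1b alone was measured, at 29.0 CPM in IgAN and 37.68 CPM in Control. Of 22 proteases studied with such inhibitors 8 were measured, 4 positive, with a median of 0.02 and none by the rule. The cathepsin genes Ctsl (804.5 CPM in IgAN, 722.2 CPM in Control) and Ctsb (649.8 and 621.6 CPM), whose products Serpina3g can block, were both abundant there, as was Plat, the tissue plasminogen activator gene (2913 and 2948 CPM).

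The upstream sequences of 4 of the genes are printed because these copies were higher together. RefSeq (GRCm38.p6) gave the 250 bases before the start at chr12:104214294-104214543 for Serpina3f, chr12:104235897-104236146 for Serpina3g, chr12:104262872-104263121 for Serpina3i and chr12:104406458-104406707 for Serpina3n, all on the plus strand. Capitals mark a STAT site, TTCNNNGAA, or an NF-kappaB site, searched on both strands.
Serpina3f: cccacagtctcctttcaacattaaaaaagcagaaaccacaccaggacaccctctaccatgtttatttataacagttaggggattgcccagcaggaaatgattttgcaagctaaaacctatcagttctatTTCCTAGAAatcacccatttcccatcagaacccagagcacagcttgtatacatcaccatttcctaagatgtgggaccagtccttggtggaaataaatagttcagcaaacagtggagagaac
Serpina3g: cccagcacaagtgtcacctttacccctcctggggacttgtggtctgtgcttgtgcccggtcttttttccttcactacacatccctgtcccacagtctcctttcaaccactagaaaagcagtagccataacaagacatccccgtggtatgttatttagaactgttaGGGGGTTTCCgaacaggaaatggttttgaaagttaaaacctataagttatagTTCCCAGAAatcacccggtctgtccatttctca
Serpina3i: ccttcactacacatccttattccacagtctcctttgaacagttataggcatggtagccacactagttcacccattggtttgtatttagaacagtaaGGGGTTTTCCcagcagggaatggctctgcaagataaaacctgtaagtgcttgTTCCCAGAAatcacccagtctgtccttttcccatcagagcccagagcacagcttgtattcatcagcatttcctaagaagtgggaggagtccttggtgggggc
Serpina3n: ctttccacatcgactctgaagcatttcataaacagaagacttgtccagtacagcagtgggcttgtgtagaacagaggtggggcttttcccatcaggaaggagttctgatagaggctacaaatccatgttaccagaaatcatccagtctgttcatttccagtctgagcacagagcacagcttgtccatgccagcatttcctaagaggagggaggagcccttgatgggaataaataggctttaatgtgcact
The STAT site was in Serpina3f (-121 to -113 from the RefSeq start), Serpina3g (-33 to -25) and Serpina3i (-102 to -94). It was not in the window of Serpina3n. The Serpina3f and Serpina3i windows end at the base before the GENCODE start given above. Those of Serpina3g and Serpina3n end further before it, at 104236146 (start 104236245) and 104406707 (start 104406729). Positions are therefore not compared between copies. The STAT letters occur in 7.02% of 32851 promoter windows of this length. Aligned bases of the copies' windows are 82.89% identical between Serpina3f and Serpina3g, 80.82% between Serpina3f and Serpina3i and 77.9% between Serpina3g and Serpina3i. Matches in them are thus not independent, and nothing is read from their count. The NF-kappaB site was in Serpina3g (-85 to -76) and Serpina3i (-154 to -145), and in 7.25% of all windows. The core of the interferon response element, searched in the same way, was in none of the 4 windows and in 2.98% of all. No 2 of these matches overlapped. A match is a run of letters and not a site shown to be bound.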

How the data were processed

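Per the labels, single cells of the glomerular fraction were sorted by a viability dye and read by Smart-seq2, without molecular identifiers. The deposited table holds counts, whole numbers of reads per gene and cell; per the submitters' processing notes, reads were handled with featureCounts, Subread 1.4.6-p5, SAMtools 0.1.18 and TopHat2 2.1.1 on GRCm38 (mm10), with the annotation, strand setting and treatment of reads shared by copies not given in the sources used here. Every cell passed at least 10000 reads and 500 genes. Cells were clustered with scanpy 1.11.5 and leidenalg 0.10.2 (2000 variable genes without Serpina3 genes, 30 components, 15 neighbours, resolution 1; 23 clusters). A cluster took the class with the highest marker score, needing 3 markers in 25% of cells; doublets were not called, and cells with markers of 2 classes were left out as an alternative. A gene was measured at 10 CPM and in 10% of cells in 1 group. Plates needed 10 cells, and a class 3 such plates per group. From each list, genes past the size rule and the 3 most abundant are named, and by likeness the 5 genes nearest to the sum and 3 to each member. Intervals are exact 95% Poisson or Clopper-Pearson and cover counting error only; a count of 0 allows 3 reads. Simulated data with known differences were used to test the size rule. Sequences are from GENCODE vM21 and RefSeq. The members and lists were chosen with earlier results of these data known. One list of related genes is not reported here. Python 3.11.15, pandas 2.3.3 and scipy 1.17.1 were used.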

Additional observations from a re-analysis of the deposited data

Results flagged for a closer look

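In 16 of 60 sets of 4 to 6 plates, 1 plate stood far from the others of its group and class; chance flags about 1 in 20 sets, and the genes of a class are not independent of each other. None was in endothelial-like cells.

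IgAN plate 325 accounted for 12 of the flags. In its 14 T or NK cell-like cells Serpina3f was at 38.1 CPM (nearest plate 6.48), Serpina3g at 118.3 (18.45), Serpina3h at 187.1 (13.85), Serpina3i at 98.38 (6.73), Serpina3n at 9.667 (1.19) and the sum at 451.5 (41.54). In its 20 mesangial-like cells Serpina3f was at 63.32 CPM (nearest plate 7.74), Serpina3g at 77.46 (16.14), Serpina3h at 147.2 (32.5), Serpina3i at 87.29 (16.14) and the sum at 380.8 (74.07). In its 42 proximal tubule-like cells Serpina3n was at 40.37 CPM, against 5.66 on the nearest plate. The 11 endothelial markers on this plate summed to 5848 CPM in T or NK cell-like and 9405 CPM in proximal tubule-like cells, the highest of the IgAN plates in both; their part in the flags was not tested.

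Control plate 321 was far from the others in its 40 T or NK cell-like cells for Serpina3f, at 8.264 CPM (nearest 0.927), Serpina3g, at 32.33 (3.18), and the sum, at 44.97 (9.66); 1 cell held 87.46% of the class's Serpina3g reads. Control plate 326 was flagged for Serpina3h, at 3.442 CPM against 2.37, in 35 cells.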

How the results depend on the processing

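In endothelial-like cells the log2 differences kept their direction under every alternative run, and 69 of 72 other than leaving out a plate moved by less than the SD between plates. The 3 exceptions were cells gated on markers (Serpina3f 1.20, Serpina3g 1.12) and the mean over clusters with at least 20 cells per group (Serpina3g 1.13); the cause was not tested. Leaving out 1 plate gave 1.66 to 1.90 for Serpina3f, 1.56 to 1.81 for Serpina3g, 1.02 to 1.33 for Serpina3h, 1.15 to 1.43 for Serpina3i, 0.81 to 1.05 for Serpina3n and 1.34 to 1.54 for the sum. Shares of cells with a Serpina3 read were 98.42 to 99.12% in IgAN and 79.34 to 87.45% in Control without 1 plate, 93.58% and 63.58% thinned, and 96.39% and 64.07% at 10 CPM. Members meeting the size rule were 4 to 5 without 1 plate, 5 at a log2 limit of 0.58 and 0 at a limit of 2. Genes higher and lower by the rule numbered 127 and 116 with no filter, 40 and 33 at 50 CPM, 121 and 136 at a limit of 0.58, and 24 and 20 at a limit of 2. They numbered 85 to 116 and 75 to 109 without 1 plate, 116 and 109 without Control plate 314; fewer plates then have to lie apart. Serpina3g in T or NK cell-like cells reversed, to -0.268, without IgAN plate 325 and was 2.706 without Control plate 321. Leaving out the 41 cells whose Gm13340 share went against the label, an alternative chosen after seeing the data, gave 0.92 to 1.81 for the members. No paired analysis was possible because each plate holds 1 group and the labels give no shared replicate number. Levels outside the endothelium rest on few cells and, in several classes, stand beside endothelial markers; the part of those was not tested.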

Other observations

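The 2 unnamed clusters also held the genes. They had 39 IgAN and 7 Control cells, 1 led by the collecting duct gene Aqp2 and 1 by cell cycle genes, with a Serpina3 sum of 749.4 CPM in IgAN and 222.1 CPM in Control. Their Pecam1 and Cdh5 level was 86.31% of the endothelial-like one in IgAN and 74.2% in Control. In parietal epithelial-like cells a cell of IgAN plate 325 held 732.9 CPM of Serpina3h and 745.0 CPM of Serpina3i with 214.6 CPM of endothelial markers; in endothelial-like cells of both groups Serpina3i had fewer reads than Serpina3h.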
